A study of Mus musculus with 3 samples.

Results

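The genes described here are the conjugation enzymes and carboxylesterases of the mouse kidney. They are UDP-glucuronosyltransferases (Ugt1, Ugt2 and Ugt3 genes), sulfotransferases (Sult genes), carboxylesterases (Ces genes) and glutathione S-transferases. The glutathione S-transferases are Gst genes of the alpha, kappa, mu, omega, pi, theta and zeta classes. Members were chosen by name: every probe set of the array whose platform annotation gives a single symbol with one of these prefixes. This found 72 probe sets of 56 genes, among 45037 probe sets and 18193 named genes in all. The arrays measured kidney RNA of 3 C57BL/6 mice, 1 control and 2 that drank 200 mM acetate, a short-chain fatty acid, for 6 weeks from the age of 3 weeks. All were conventionally housed, and the labels give no sex. Xist, the RNA of the inactive X chromosome, stood at 11.80, 12.03 and 11.85 on the log2 scale on the control, mouse 1 and mouse 2 arrays, and no probe set of the Y-linked genes Eif2s3y, Kdm5d or Uty exceeded 3.45.

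Conjugation makes lipophilic molecules easier to excrete. UDP-glucuronosyltransferases attach glucuronic acid, glutathione S-transferases attach the tripeptide glutathione to reactive electrophiles, and sulfotransferases attach sulfate, while carboxylesterases cleave esters and amides of drugs and lipids and often expose the group that is then conjugated. In the kidney these enzymes are known mainly from the proximal tubule, which takes up and secretes organic anions, drugs and steroid metabolites.

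Values are the deposited log2 expression values, in which a difference of 1 is a 2-fold change, and acetate-fed levels are given for each mouse or as the mean ± SD of n = 2 mice. A gene with several probe sets is represented by the tested one with the highest mean. The control is 1 array, so every difference contains whatever was particular to that kidney, and the differences of both mice share it. Probe sets in the upper 60% by mean over the 3 arrays, a mean of at least 4.21, were tested. This kept 50 probe sets of 38 members, and the other 18 members are accounted for further on. A gene passed the 1.5-fold rule when it was at least 1.5-fold from the control, a log2 difference of 0.58, in the same direction in both mice. Where no fold is given, higher or lower in both mice means by any amount. Over all tested genes, 30.9% were lower and 26.0% higher in both mice in this way. "Rose" and "fell" are kept for genes past limma's test at an adjusted p of 0.05.

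Before the members, 3 facts of these arrays bear on them. All 13 tested adipocyte markers were below the control in each acetate-fed mouse, and the log2 of their summed linear values was 14.01 in the control against 12.44 and 12.26. Adiponectin (Adipoq), a fat cell hormone, stood at 9.98, 4.38 and 3.87, and Ucp1, the uncoupling protein of brown fat, at 8.53, 4.50 and 4.70. The control sample thus held transcripts of these 2 genes that were near the lower end of the scale in the others. Other adipocyte markers stayed well above it, such as Lpl at 12.91, 11.67 and 11.40 and Fabp4 at 10.96, 9.81 and 9.98. All 30 proximal tubule markers passed the filter, and by any amount 20 were lower and 5 higher in both mice (7 and 1 by the 1.5-fold rule), with summed log2 levels of 17.23, 17.03 and 16.91. All 13 tested macrophage markers were above it, with summed levels of 11.50, 13.37 and 12.50, as were 9 of 11 tubular injury markers (11 and 7 by the 1.5-fold rule), with 12.57, 13.77 and 13.22. Of 8 hepatocyte markers, 6 were lower in both mice by any amount and 3 by the 1.5-fold rule, with summed levels of 11.81, 11.18 and 11.62. Albumin (Alb) stood at 7.85, 6.20 and 6.56, and 1 marker, Ahsg, was higher in both mice, at 4.17, 4.36 and 4.36. The part of these shifts in the member values was not tested. In whole tissue, fewer cells of a type and less RNA per cell cannot be told apart.

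Of the 38 tested members, 3 were lower by the 1.5-fold rule and 1 was higher. They were the carboxylesterases Ces2b and Ces1e and the glucuronosyltransferase Ugt2b38 below the control, and the glucuronosyltransferase Ugt2b37 above it. Over all 13473 tested genes, 1.60% were lower by the same rule and 1.75% higher. By any amount, 18 members were lower in both mice and 8 higher, against 30.9% and 26.0% of all tested genes. The remaining 12 members did not lie on 1 side of the control in both mice, against 5811 of all 13473 tested genes. Of these 12, 3 had exactly the same value on all 3 arrays, against 2418 of all tested genes. A gene equal on all arrays counts as neither lower nor higher, so the any-amount shares depend on such ties. The member medians were -0.04 (mouse 1) and -0.02 (mouse 2), and the median of all tested genes was 0 in both.

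**Figure D1:**
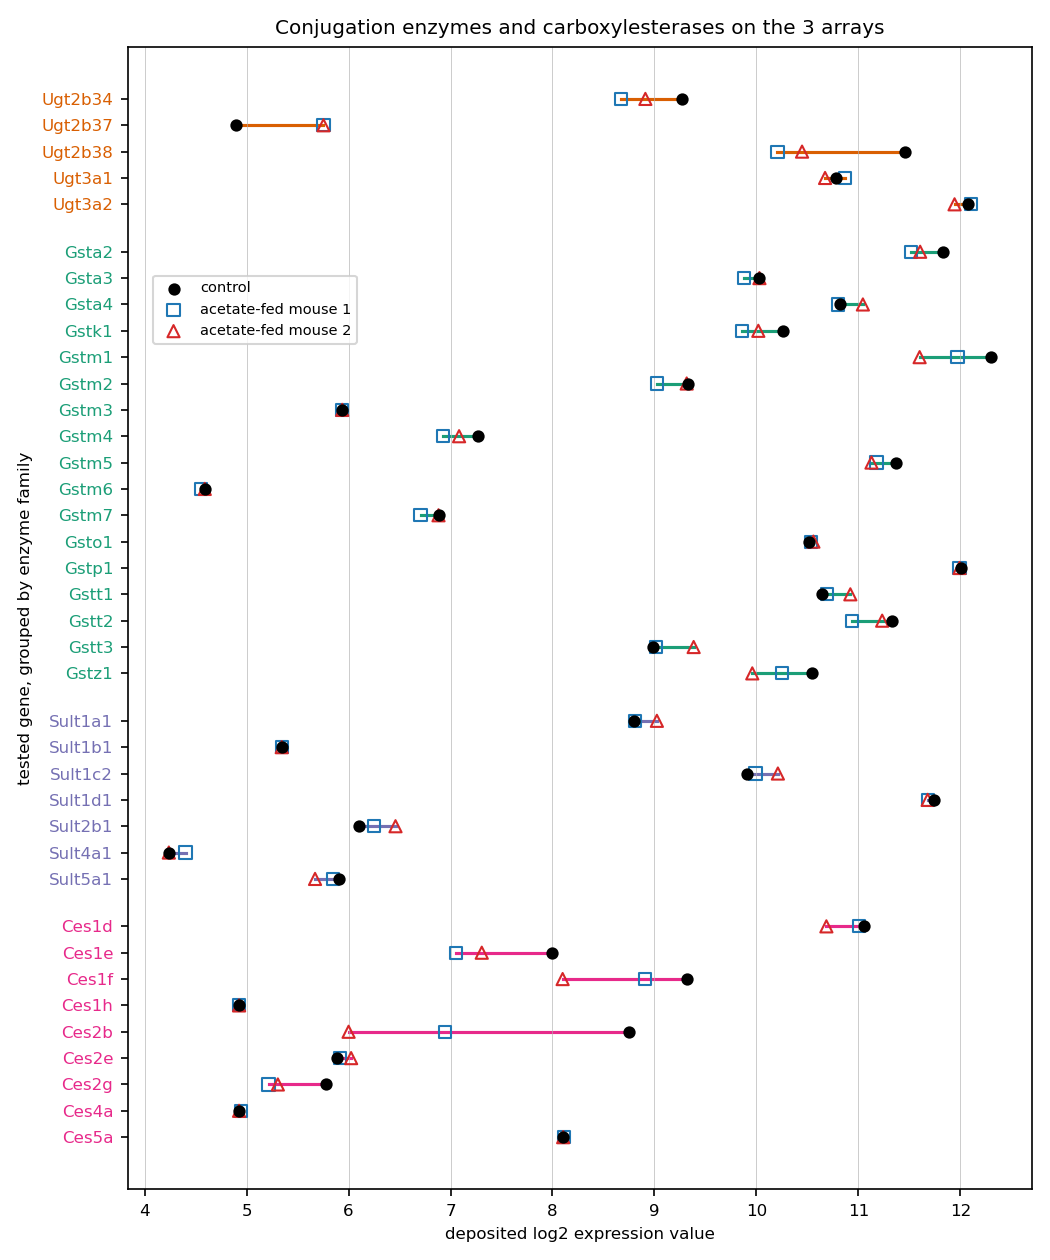
Deposited log2 values (x axis) of the 38 tested member genes (y axis, grouped as UGT, GST, SULT and CES), with a filled circle for the control, an open square for acetate-fed mouse 1 and an open triangle for mouse 2, joined by a line over their range. The widest separation is at Ces2b, from 8.75 in the control to 6.95 and 6.00, and both acetate-fed values of Ugt2b37 lie on one spot at 5.75, above the control at 4.90.

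The limma test (lmFit and eBayes with an intensity trend, Benjamini-Hochberg adjustment over all probe sets) has 1 residual degree of freedom, from the acetate-fed pair, and assumes that the lone control varies like that pair. By it, 1 member rose (Ugt2b37) and 0 fell, against 3.97% and 4.92% of all tested genes. An unadjusted p under 0.05 was reached by 3 of the 38 members, Ugt2b37, Ces2g and Sult1d1, against 2603 of all 13473 tested genes. Exact ties in the acetate-fed pair bear on this test: 92.3% of all probe sets it called were tied there, and so was Ugt2b37. With tied pairs left out, 33 members stayed in the fit, of which 8 passed as lower and 0 as higher, against 6.12% and 6.60% of the 9451 genes in that fit. The 8 were Ces1e, Ces1f, Ces2b, Ces2g, Ugt2b34, Ugt2b38, Gstm1 and Gstz1. The spread in that fit comes largely from the pool of all its probe sets (26.5 prior degrees of freedom), so a pass reflects the size of the mean difference more than the likeness of both mice.

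**Figure D2:**
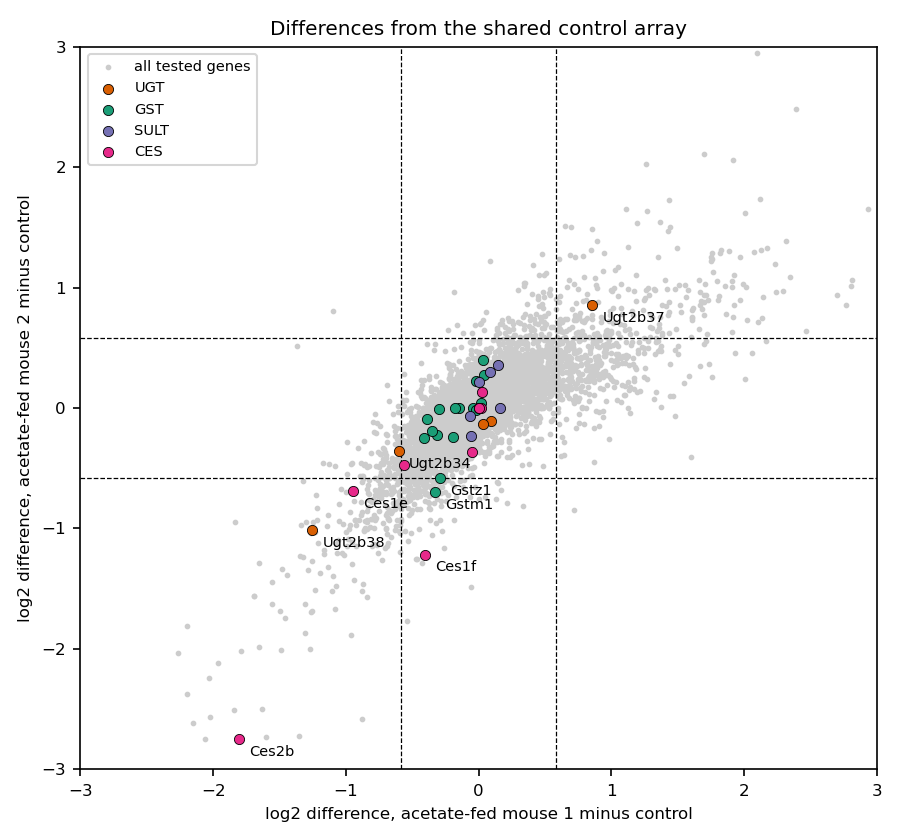
Log2 difference from the control in acetate-fed mouse 1 (x axis) and mouse 2 (y axis) for all 13473 tested genes (grey) and the 38 members (coloured by family). Dashed lines mark 1.5-fold, and 15 genes, none of them a member, lie beyond the plotted range of 3. Both axes share the control array, so the slope of the cloud is in part built in. Ces2b, Ugt2b38 and Ces1e lie in the lower left field, Ugt2b37 alone in the upper right, and the SULT members within 0.36 of the control on both axes, while the GST members Gstm1 and Gstz1 pass the line in mouse 2 alone.

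Among the carboxylesterases, 9 of 13 genes were tested, with family medians of -0.05 (mouse 1) and -0.37 (mouse 2). By any amount, 5 were lower in both mice and 1 was higher, against 30.9% and 26.0% of all tested genes. Ces2b, a member of the Ces2 group of ester hydrolases, stood at 8.75 in the control against 6.95 and 6.00 in mouse 1 and mouse 2, a mean of 6.47 ± 0.67 (SD, n = 2). This was 3.5-fold and 6.73-fold lower, and the mice differed from each other by less than either differed from the control. Among all tested genes, 14 had a mean difference further below the control than that of Ces2b, which was -2.28. At 2-fold in both mice, Ces2b and Ugt2b38 were lower and 0 members higher, against 0.460% and 0.408% of all tested genes. Ces2b did not pass limma's test (adjusted p = 0.456, and 8.38e-09 in the limma fit without tied pairs).

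Ces1e, known as egasyn, holds beta-glucuronidase in the endoplasmic reticulum. Its control value was 8.0 and its acetate-fed values 7.05 and 7.31, so both mice lay below the control by 1.93-fold and 1.62-fold (adjusted p = 0.371 by limma, and 0.000276 without tied pairs). Ces1f, a triacylglycerol hydrolase, was read by a probe set whose suffix marks probes shared between transcripts. It stood at 9.32, 8.91 and 8.10, and was 1.32-fold lower in mouse 1 and 2.33-fold lower in mouse 2, so only mouse 2 passed the fold rule (adjusted p = 0.791 by limma, and 0.00346 without tied pairs). Ces2g was 5.78, 5.21 and 5.31, which placed both mice just inside the 1.5-fold line, at 1.48-fold and 1.39-fold lower (adjusted p = 0.23 by limma, and 0.033 without tied pairs).

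The other tested carboxylesterases lay near the control. Ces1d, a triacylglycerol hydrolase known from liver and fat, was 11.05, 11.01 and 10.69, and its second tested probe set was 10.01, 9.80 and 9.76. Both probe sets of Ces1d were below the control in both mice, by at most 1.29-fold. Ces2e was the 1 carboxylesterase above the control in both mice, at 5.89, 5.91 and 6.02. Ces1h, Ces4a and Ces5a, the last named cauxin for its abundance in cat urine, differed by at most 0.02 on the log2 scale in either mouse. In the RefSeq annotation of GRCm38.p6, Ces1d, Ces1e and Ces1f follow one another in a cluster on chromosome 8, and Ces2b and Ces2g lie in a separate cluster of Ces2 genes on that chromosome.

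Among the glucuronosyltransferases, 5 of 10 genes were tested, and the 3 tested Ugt2 genes moved in opposite directions. Ugt2b38 stood at 11.46 in the control against 10.21 and 10.45 in the acetate-fed mice, a mean of 10.33 ± 0.17. It was 2.38-fold and 2.02-fold lower, and the gap to the control was larger than the gap between the mice (adjusted p = 0.271 by limma, and 1.97e-07 without tied pairs). Ugt2b34, whose probe set carries the shared-probe suffix, was 9.27, 8.67 and 8.91, lower by 1.52-fold and 1.28-fold. Its other probe set, without that suffix, gave 1.51-fold and 1.23-fold. Ugt2b34 did not pass limma's test (adjusted p = 0.52, and 0.0171 without tied pairs).

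Ugt2b37 went the other way. It rose from 4.90 in the control to 5.75 in both mice, 1.81-fold (limma, adjusted p = 0.00906). Its acetate-fed values were exactly tied, which gives this test a spread near 0, and the call was lost after quantile normalization and after median centring, where limma called 0 of all tested genes while the log2 difference of Ugt2b37 was 0.83 in each, and Ugt2b37 had no value in the fit without tied pairs. The level of 4.90 lies not far above the filter at 4.21, and Ugt2b37 was no longer tested when the upper 40% of probe sets were kept.

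Ugt2b37 and Ugt2b38 belong to the same cluster on chromosome 5, with Ugt2a3 between them in the RefSeq annotation of GRCm38.p6. Their promoter windows, from 250 bases before to 50 after the annotated start, are shown because the transcripts differed in direction while these sequences are near copies. The Ugt2b37 window is chr5:87254739-87255038 and the Ugt2b38 window chr5:87424154-87424453, both on the minus strand, from RefSeq. Capitals mark the bases at which they differ in a pairwise alignment, written 5′ to 3′.
Ugt2b37: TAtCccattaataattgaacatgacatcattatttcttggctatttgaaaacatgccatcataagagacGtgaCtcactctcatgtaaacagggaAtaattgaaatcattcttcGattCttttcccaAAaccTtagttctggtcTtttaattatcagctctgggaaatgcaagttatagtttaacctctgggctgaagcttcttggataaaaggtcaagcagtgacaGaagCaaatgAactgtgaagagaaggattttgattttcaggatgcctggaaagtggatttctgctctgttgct
Ugt2b38: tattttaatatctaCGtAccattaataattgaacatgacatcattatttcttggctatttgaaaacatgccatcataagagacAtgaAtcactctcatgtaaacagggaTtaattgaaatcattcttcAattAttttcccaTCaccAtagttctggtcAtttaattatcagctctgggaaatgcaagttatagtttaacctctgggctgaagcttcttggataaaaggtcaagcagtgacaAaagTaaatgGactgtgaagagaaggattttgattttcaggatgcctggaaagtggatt

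The windows are offset by 14 bases because the annotated starts differ, and over the 286 bases they share, 271 were identical (94.8%) and 15 differed, with no internal gap. Each window was searched on both strands for 5 motifs, of which 0 were found in either. An HNF1 half-site, GTTAAT, is held by 7.10% of all 32851 windows of this length. The HNF4 element CAAAGTCCA is held by 0.475% of them, and the antioxidant response element core TGACNNNGC by 12.4%. A steroid receptor half-site, AGAACA, occurs in 19.0%. The TATA box letters, TATAAA, occur in 13.6%. The absence of these letters says nothing about which factors act there. Whether the probes for Ugt2b37 and Ugt2b38 also read each other's transcript was not tested.

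The UGT3 enzymes, which use other sugars than glucuronic acid, lay at the control level. Ugt3a1 stood at 10.78, 10.87 and 10.67 and Ugt3a2 at 12.07, 12.10 and 11.94, each above the control in mouse 1 and below it in mouse 2. No UGT1 probe set carried a single symbol, so UGT1 has no member. There were 3 probe sets annotated to several UGT1 symbols at once, which share their last exons, and on these the difference from the control ran from -0.54 to -0.30 in mouse 1 and from -0.65 to -0.39 in mouse 2. They cannot be assigned to a gene, but all 3 were lower in both mice. In all, 6 probe sets of these families were left out for carrying several symbols. That of Ugt2a1 and Ugt2a2 had 2.88 on all 3 arrays, that of Ces3a and Ces3b was 2.81, 2.81 and 2.83, and an alpha class one is given below.

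Among the glutathione S-transferases, 17 of 20 genes were tested and none reached 1.5-fold in both mice in either direction. By any amount, 9 were lower and 3 higher in both mice, against 30.9% and 26.0% of all tested genes. The family medians were -0.18 and -0.01. The range ran from -0.41 to 0.04 in mouse 1 and from -0.70 to 0.40 in mouse 2, so the family was narrower than the carboxylesterases.

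Gstm1, a main mu class enzyme, showed the largest decrease of the family by mean difference. It stood at 12.30, 11.97 and 11.60, 1.25-fold lower in mouse 1 and 1.62-fold in mouse 2 (adjusted p = 0.659 by limma, and 0.00784 without tied pairs). Its 4 tested probe sets disagreed: the 2 with the highest means were lower in both mice by 1.25-fold to 1.62-fold, the next was 1.16-fold lower in mouse 2 alone, and the dimmest had 6.86 on all 3 arrays. Gstm4 was 7.27, 6.92 and 7.08, and Gstm5 11.37, 11.18 and 11.13, both below the control in both mice by at most 1.28-fold. Gstm2 was 9.33, 9.03 and 9.32, lower in mouse 1 and level with the control in mouse 2. Gstm3, Gstm6 and Gstm7 equalled the control in at least 1 mouse, although dimmer probe sets of Gstm3 and Gstm7 with tied pairs passed limma at -0.05 and 0.05 (adjusted p = 0.022 and 0.0203). Mu class genes are close paralogs in 1 cluster, and probes may read more than 1 of them.

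Gstz1, the maleylacetoacetate isomerase of tyrosine breakdown, was 10.55, 10.25 and 9.96, lower by 1.23-fold and 1.5-fold (adjusted p = 0.625 by limma, and 0.0245 without tied pairs). Gstk1, the enzyme of mitochondria and peroxisomes, was 10.27, 9.86 and 10.02, with both mice below the control by 1.33-fold and 1.19-fold. In the alpha class, Gsta2 was 11.83, 11.52 and 11.61, below the control by 1.24-fold and 1.17-fold. A probe set annotated to Gsta1, Gsta2 and Gm3776 at once, which is not a member, was 12.33, 11.94 and 12.05. Gsta4, which conjugates the lipid peroxidation product hydroxynonenal, was 10.82, 10.80 and 11.04, and lay above the control in mouse 2 alone. Gsta3 depended on the probe set: the brighter one was 10.03, 9.88 and 10.03, and the dimmer one 6.27, 5.62 and 5.73, which is 1.57-fold and 1.45-fold lower.

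The theta class was split. Gstt2 was 11.33, 10.94 and 11.23, below the control in both mice by 1.31-fold and 1.07-fold. Gstt3 was 8.98, 9.01 and 9.38 and Gstt1, which acts on small halogenated compounds, 10.65, 10.69 and 10.92, so both were near the control in mouse 1 and above it in mouse 2. Gstp1, the pi class enzyme, stood at 12.01, 11.99 and 11.99, and Gsto1, a thioltransferase of the omega class, at 10.52, 10.54 and 10.56. These 2 genes differed from the control by at most 0.04.

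Among the sulfotransferases, 7 of 13 genes were tested and none was 1.5-fold from the control in both mice. By any amount, 3 were higher and 2 lower in both mice, against 26.0% and 30.9% of all tested genes. The family medians were 0.01 and 0.00. Sult2b1, which sulfates cholesterol and other sterols, was 6.10, 6.25 and 6.46, above the control by 1.11-fold and 1.28-fold. Sult1c2 was 9.91, 9.99 and 10.21, above it by 1.06-fold and 1.23-fold. Sult5a1 was 5.91, 5.85 and 5.67, below the control in both mice by at most 1.18-fold. All of these differences were under 1.5-fold in each mouse.

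Sult1a1, the phenol sulfotransferase, was 8.80, 8.81 and 9.02. Sult1d1, an enzyme of catecholamine sulfation, was 11.74, 11.68 and 11.68 on its brighter probe set and 10.78, 10.39 and 10.59 on the dimmer one, so both probe sets were lower in both mice and by different amounts. Its unadjusted p of 0.0253 came from a nearly tied pair and its adjusted p by limma was 0.158. Sult1b1 had 5.34 on all 3 arrays, and Sult4a1, known from brain, was near the filter at 4.24, 4.40 and 4.24.

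**Figure D3:**
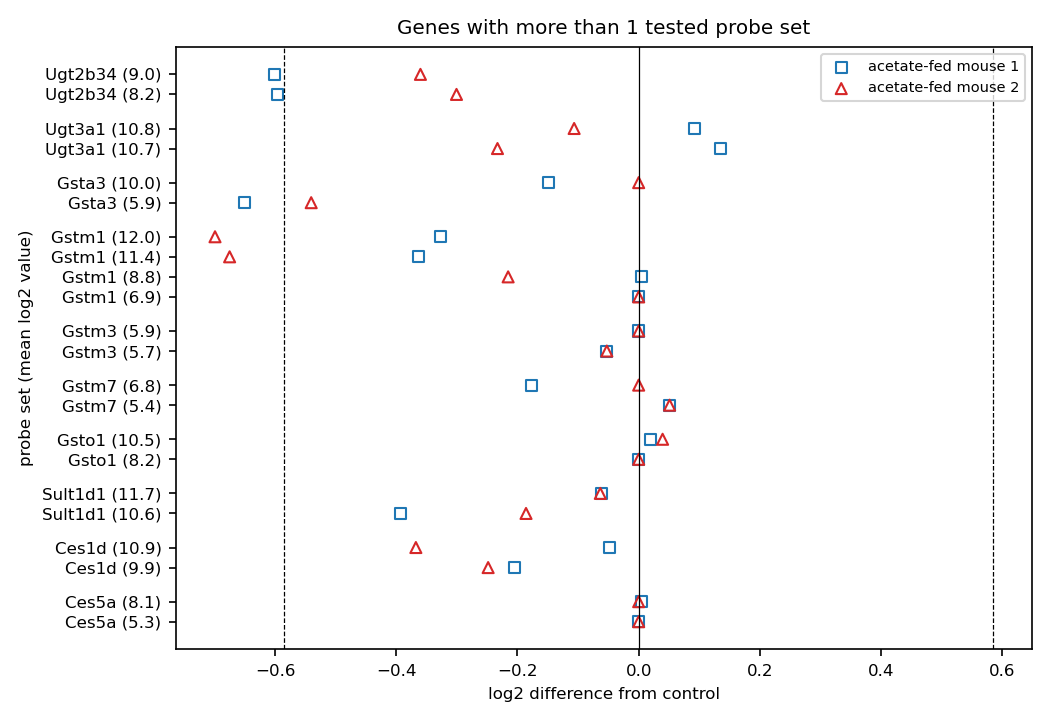
Log2 difference from the control (x axis) in acetate-fed mouse 1 (squares) and mouse 2 (triangles) for each tested probe set of the 10 members with more than 1, with the probe set's mean log2 value in parentheses and dashed lines at 1.5-fold. The 2 probe sets of Ugt2b34 lie together, at -0.60 in mouse 1, while those of Gsta3 and Gstm1 range from a decrease to 0.

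The 18 members below the filter were Ces1c, Ces1g, Ces2a, Ces2f, Gsto2, Gstp3, Gstt4, Sult1c1, Sult1e1, Sult2a2, Sult2a8, Sult3a1, Sult6b1, Ugt2a3, Ugt2b1, Ugt2b35, Ugt2b36 and Ugt2b5. None of them exceeded 3.91 on any array. Estrogen sulfotransferase (Sult1e1) had 3.03 on all arrays. The widest differences were those of Ugt2b5, which was 2.57, 3.08 and 2.92, and Ces1g, at 3.51, 3.21 and 3.05. Both lay at the low end of the scale, where a difference may be compressed, and no detection call was used here.

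Other genes of the same pathways were taken from 6 lists. Their counts stand beside 30.9% lower and 26.0% higher by any amount over all tested genes. By the 1.5-fold rule these shares were 1.60% and 1.75%. Of 16 other conjugation enzymes, 10 were below the control in both mice by any amount and 2 above it (medians -0.22 and -0.17), and 1 was lower and 1 higher by the 1.5-fold rule. Nat8, which acetylates cysteine conjugates to mercapturates, was 9.72, 9.01 and 8.91, lower by 1.63-fold and 1.74-fold. Inmt, an amine methyltransferase, was 10.39, 11.06 and 11.39, higher by 1.59-fold and 2.00-fold. By limma, Nat1 and As3mt fell and Hpgds rose, all with tied pairs and differences of at most 0.24. Nnmt (1.22-fold and 1.71-fold lower), Keg1 (1.30-fold and 1.38-fold) and Tpmt, a thiol methyltransferase, were also below the control in both mice.

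Of 12 genes that supply cofactors, 6 were lower in both mice by any amount and 1 higher, with medians of -0.05 in each mouse. Gclc, the catalytic subunit of the rate-limiting enzyme of glutathione synthesis, was 12.03, 10.79 and 11.09, 2.37-fold and 1.93-fold lower (adjusted p = 0.334 by limma), and was the 1 gene of the list past 1.5-fold. Gsr, glutathione reductase, was 1.39-fold and 1.24-fold lower, and Slc35d1, a carrier of UDP-glucuronic acid, 1.32-fold and 1.30-fold. Ugdh, which makes UDP-glucuronic acid, was 9.03, 9.09 and 9.09, and the sulfate donor synthase Papss2 11.35, 11.38 and 11.27, both near the control.

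Of 13 genes of mercapturate formation and deconjugation, 7 were lower and 3 higher in both mice by any amount, with medians of -0.04 and -0.16, and 1, Anpep, was lower by the 1.5-fold rule. Anpep, a brush border aminopeptidase, was 8.79, 7.93 and 7.79, lower by 1.81-fold and 1.99-fold. Ggt6 and the dipeptidase Dpep1 were lower in both mice by 1.32-fold to 1.64-fold, and Chac1, which degrades glutathione inside the cell, was 1.41-fold and 1.25-fold higher. Beta-glucuronidase (Gusb) was 7.75, 7.82 and 7.77, at the control level. None of the list passed limma's test after adjustment.

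Of 14 other esterases and hydrolases, 8 were lower and 2 higher in both mice by any amount, with medians of -0.28 and -0.13, and 3 were at least 1.5-fold lower: Lpl, Afmid and Lipe. Afmid, the formamidase of tryptophan breakdown, was 8.93, 7.73 and 7.55, lower by 2.29-fold and 2.59-fold. Lipe, hormone-sensitive lipase, and Lpl, lipoprotein lipase, are fat cell genes as well; Lipe was 2.35-fold and 2.04-fold lower and Lpl 2.36-fold and 2.86-fold. Nceh1 was 1.43-fold and 1.64-fold lower, while Ephx1, the microsomal epoxide hydrolase, was 8.93, 9.07 and 9.58, above the control in both mice. Aadac, an esterase of the endoplasmic reticulum, was 11.23, 11.28 and 11.14.

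Of 10 efflux transporters, which export conjugates, 7 were lower and 1 higher in both mice by any amount, with medians of -0.26 and -0.30, and 2, Abcc2 and Abcc3, were lower by the 1.5-fold rule. Abcc2, which exports glucuronides and glutathione conjugates across the brush border, fell from 8.63 to 8.03 in both mice, 1.51-fold in each (adjusted p = 0.0193 by limma). Its probe set carries the shared-probe suffix. Abcc3 was 9.85, 8.91 and 8.42, lower by 1.92-fold and 2.69-fold. Abcb1a fell by 0.58 and 0.56 on the log2 scale (adjusted p = 0.0498 by limma) and Abcc6 by 0.13 in both, with a tied pair. The pairs of Abcc2 and Abcb1a were nearly tied. After quantile normalization and after median centring limma called 0 of all tested genes, so these calls were lost there. Of 16 regulators, none was 1.5-fold from the control in both mice. Nfe2l2, which encodes NRF2, was 9.89, 10.08 and 10.01, and the bile acid receptor Nr1h4 was 9.20, 8.59 and 9.17, 1.53-fold lower in mouse 1 and near the control in mouse 2.

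**Figure D4:**
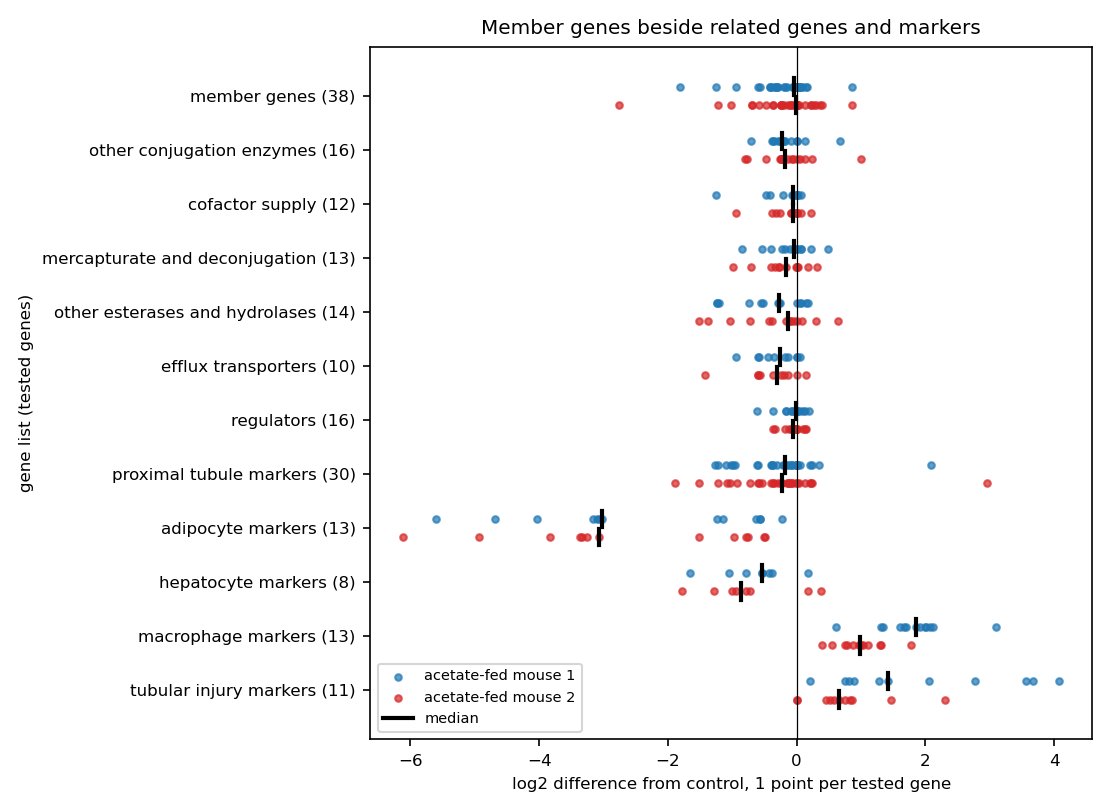
Log2 difference from the control (x axis) of each tested gene in acetate-fed mouse 1 (blue) and mouse 2 (red), with the median as a black bar, for the members, 6 lists of related genes and 5 marker lists (y axis, with the number of tested genes). Member medians lie at -0.04 and -0.02, those of adipocyte markers at -3.03 and -3.07, and those of macrophage markers at 1.86 and 0.99.

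Genes that are known to differ between male and female mouse kidney were followed because several Ugt2b, Sult and Ces genes do so. Of 13 tested, 7 were lower and 4 higher in both mice by any amount, and 4 were lower and 1 higher by the 1.5-fold rule. Cyp2e1 was 10.47, 8.45 and 7.91 and Cyp7b1 6.38, 5.49 and 5.49, both below the control, and Slc7a13 was 4.93, 7.03 and 7.88, above it. Xist was at a like level on all 3 arrays, as given above. The part of hormonal state in the member values was not tested. Of 9 urothelial markers, 4 were above the control in both mice by any amount and 2 below it. By the 1.5-fold rule 3 were higher, the keratins Krt5, Krt15 and Krt19, and 0 lower. Of 10 adrenal markers, 4 were tested and the others were below the filter. The highest of the tested ones, Cyp21a1, stood at 5.95, 5.95 and 5.98, and the summed levels of the 4 were 7.31, 7.33 and 7.32.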

How the data were processed

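Biotin-labelled kidney RNA was hybridised to single-colour Affymetrix arrays, 1 per mouse. The deposited table holds log2 values per probe set, with array medians of 4.91, 4.94 and 4.93. The submitters' processing notes name MAS5; its version and role are not stated there, and no scanner file was used. In the acetate-fed pair 33.7% of tested probe sets were exactly tied. Whether these values are MAS5 signals or a summary made across arrays is therefore unsettled, and a tie may come from the summary and not from equal RNA levels; it makes the spread near 0. Of 45101 probe sets, 64 Affymetrix controls were left out, 34945 had 1 symbol, 932 several and 9160 none in the annotation used; 34741 matched a RefSeq gene table and 0 symbols changed. No value column was left unused.

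Groups came from the labelled agent. limma 3.58.1 (R 4.3.3) was fitted on 27022 probe sets, calling 1400 higher and 1446 lower. Its test on simulated data held no tied pairs, so that test says nothing about calls that rest on ties. The number of arrays limits the precision. Sequences were aligned with Biopython 1.88 in Python 3.11.15 and plots drawn with matplotlib 3.10.9. Named were members 1.5-fold from the control in both mice, the 3 with the largest mean difference per class, members past limma with a difference of at least 0.3, members whose probe sets differ in direction by 0.3 or whose mice differ 2-fold, and, of each pathway list, genes 1.5-fold in both mice and up to 3 more; other members are named to account for all of them, and some list genes were picked after their values were seen. The members, lists and tests were chosen with earlier results of these data known. The alternatives were other filters, scalings, pseudocounts, probe set rules, a 2-fold threshold, fits without the trend or the tied pairs, and leaving out each acetate-fed mouse.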

Additional observations from a re-analysis of the deposited data

How the results depend on the processing

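The count of 3 members at least 1.5-fold lower in both mice was also 3 with no filter, in the upper 40% of probe sets, after quantile normalization or median centring, with log2(value + 16), with a gene's probe sets averaged and without shared-probe suffixes. It was 2 with log2(value + 64) and at 2-fold, where Ces1e was lost. With 1 acetate-fed mouse left out it was 4 without mouse 2 and 6 without mouse 1. Over all 13473 tested genes the lower count moved as well, from 216 to 325 without mouse 2 and 349 without mouse 1. The count of 1 higher member, Ugt2b37, became 0 in the upper 40% of probe sets, with log2(value + 64) and at 2-fold. By limma, the count of 1 risen member was 2 of 56 with no filter, against 1012 of all 18193 genes. It was 0 in the upper 40%, after quantile normalization, after median centring and without tied pairs. In the first 3 of these 4 settings limma called 0 of all tested genes, against 535 higher and 663 lower in the reported fit. The 0 is therefore not particular to the members there. In the 4 settings 1, 4, 9 and 10 members had an unadjusted p under 0.05 by limma in either direction. The number over all genes was not counted there, so these counts have no share beside them and nothing is read from them. In the reported fit, 3 of 38 members and 2603 of all 13473 tested genes had such a p. The count of 0 fallen members was 1 of 31 without shared-probe suffixes, against 677 of all 11734 tested genes there. It was 1 of 38 with no intensity trend, against 769 of 13473. Without tied pairs it was 8 of 33, against 578 of 9451. The cause was not tested. No named member past the fold rule changed direction. No paired analysis was possible because the control carries no replicate number and there is 1 of it, and with 1 acetate-fed mouse left out no residual degree of freedom remained for limma. Detection above background is unknown, which limits the 18 members below the filter.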
